A study of Mus musculus with 6 samples.

Results

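Spleens of mice given 10 µmol/kg cadmium chloride were compared with spleens of mice given saline, on 2 bead arrays of each group. These 4 arrays were taken by their sample titles, which name the tissue, the injected solution, the dose and the replicate, out of a series of 6 arrays. The other 2 arrays came from mice given 5 µmol/kg. All animals were ICR mice, an outbred stock, 28 days old, and had received 1 injection under the skin, of cadmium chloride in 200 µL of saline or of that volume of saline alone, 24 h earlier. According to the labels a group had 7 to 8 animals, and nothing tells whether each array was hybridised with the RNA of a single mouse or a pool. The p-values below reflect only how far apart these arrays lie, and that distance may be technical. The array carries 45281 probes, and the 18960 detected (p under 0.05 against negative controls) on 2 or more of the 6 arrays were kept. The brightest probe stood for each gene, which left 10823 named genes and 2736 probes without a gene name, 13559 in all.

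Cadmium is a toxic metal that enters cells through carriers for zinc, manganese and iron and is held inside them by metallothioneins, small proteins rich in cysteine. The spleen filters blood. In its red pulp, macrophages engulf worn red cells and recycle the iron of their haem, while its white pulp holds B and T lymphocytes. In rodents the red pulp also makes red cells, granulocytes and platelets throughout life.

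The 4 arrays carried the genes of spleen cells at high signal, for example the B cell receptor chain Cd79b, with log2 signals of 11.72 and 11.76 at 10 µmol/kg and 12.23 and 11.53 in saline. They also differed in genes of the exocrine pancreas, which lies against the spleen. The mean log2 signal of 26 acinar genes was 5.03 on array 1 and 12.11 on array 2 at 10 µmol/kg, and 4.79 on array 1 and 12.74 on array 2 of saline, with 13, 26, 8 and 26 of the 26 genes detected on those arrays. Each group thus held 1 array with little acinar RNA and 1 with much of it. For this reason each difference below is also given between arrays of like acinar level, as array 1 at 10 µmol/kg minus saline array 1 and as array 2 at 10 µmol/kg minus saline array 2. These are called the array 1 and the array 2 difference, and are values of 1 array against 1 array without a test. Between all genes, the 2 arrays at 10 µmol/kg differed by a median of 0.348 on the log2 scale and the 2 saline arrays by 0.358. The arrays numbered 1 of the 2 groups differed by 0.222 and the arrays numbered 2 by 0.316. Across unlike acinar levels, array 1 at 10 µmol/kg and saline array 2 differed by 0.305. Array 2 at 10 µmol/kg and saline array 1 differed by 0.361. Only the arrays numbered 1 were thus clearly closer than arrays of 1 group. The median 95% interval of a gene's difference between the groups reached 0.69 log2 units to either side, or 1.61-fold. Most changes smaller than that could not be told from 0, even without adjustment for the number of genes. Larger differences, such as 1.84 for Ms4a6d, did not pass the adjusted test either, so changes above 1.61-fold can also have been missed. In whole tissue, fewer cells of a type and less RNA per cell cannot be told apart.

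No gene passed the test in this comparison. In limma's moderated test 0 of 13559 genes and probes (0%) had an adjusted p under 0.05, and the smallest adjusted p was 0.99996. Without adjustment, p was under 0.05 for 221 genes and probes (1.63%), of which 135 (0.996%) were higher at 10 µmol/kg and 86 (0.634%) lower. This share is smaller than 0.05, the share that the threshold lets through when no gene differs, so it is no excess. Each group held arrays of unlike acinar level, and this fit counts that split as spread within groups. With the acinar class of the arrays as a block the share was 5.47%, near 0.05. The 135 had log2 differences of 0.54 to 2.17, 31 of them over 1, and the 86 had differences of −0.54 to −1.86, 12 of them below −1. Both arrays at 10 µmol/kg lay above both saline arrays for 1488 genes and probes (11%) and below both for 1565 (11.5%). With 2 arrays against 2, such a separation is also frequent when no gene differs. The array 1 and array 2 differences had opposite signs for 7060 genes and probes (52.1%), were both above 0 for 2834 (20.9%) and both below 0 for 3645 (26.9%). The array 1 difference passed 1 log2 unit in size for 304 genes and probes and the array 2 difference for 850, and both did so in the same direction for 13, with 7 higher (0.0516%) and 6 lower (0.0443%). Among the 7 were the named genes C1qb, Trf, Ms4a6d, Wfdc17 and Cstdc4, and among the 6 was Osbp. All differences below are of log2 signals, 10 µmol/kg minus saline, with the standard error of the fit.

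**Figure D1:**
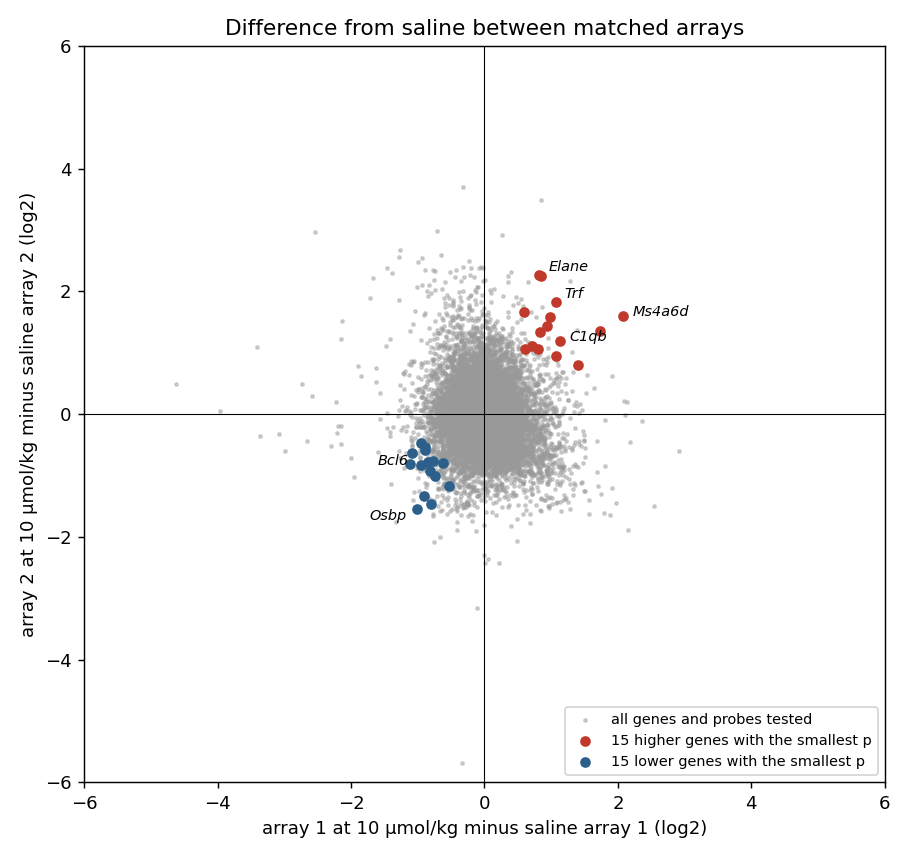
Difference from saline of each of the 13559 genes and probes on array 1 (x axis) and array 2 (y axis) at 10 µmol/kg, each against the saline array of the same acinar level, in log2 units. Grey points are all genes and probes, red and blue points the 15 higher and 15 lower named genes with the smallest p. C1qb (1.14 and 1.19) and Osbp (−1.02 and −1.55) lie in opposite corners, and 52.1% of all points lie in the 2 quadrants where the signs differ.

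Of the named genes higher at 10 µmol/kg, C1qb, a chain of complement C1q, had the smallest p, and the other 2 chains were among the 15 with the smallest p. C1q is the recognition molecule of the classical complement pathway, and macrophages are its main source. C1qb had log2 signals of 10.87 and 11.09 at 10 µmol/kg, against 9.74 and 9.91 in saline. C1qc had 10.77 and 11.02 at 10 µmol/kg, against 10.06 and 9.90 in saline. C1qa had 9.66 and 9.23 at 10 µmol/kg, against 8.59 and 8.28 in saline. All 3 chains were thus higher on both arrays at 10 µmol/kg than on either saline array, and the groups did not overlap. The differences were 1.16 ± 0.23 for C1qb, or 2.24-fold (95% interval 1.53 to 3.27), 0.92 ± 0.26 for C1qc and 1.01 ± 0.28 for C1qa, with an adjusted p of 0.99996 for each. In order of array 1 and array 2, the differences were 1.14 and 1.19 for C1qb, 0.72 and 1.11 for C1qc, and 1.08 and 0.95 for C1qa.

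The genes of these chains lie side by side on mouse chromosome 4. Stretches of 300 bases around the starts of C1qb (chr4:136886151-136886450, minus strand) and C1qc (chr4:136892865-136893164, minus strand) are shown from RefSeq, build GRCm38.p6, because all 3 C1q chains were higher together, beside that of the granule protease Prtn3 (chr10:79879417-79879716, plus strand). Capitals mark GAGGAA, the core of the box bound by PU.1, a transcription factor of macrophages and granulocytes, read on both strands, so that it can also appear as TTCCTC.
C1qb: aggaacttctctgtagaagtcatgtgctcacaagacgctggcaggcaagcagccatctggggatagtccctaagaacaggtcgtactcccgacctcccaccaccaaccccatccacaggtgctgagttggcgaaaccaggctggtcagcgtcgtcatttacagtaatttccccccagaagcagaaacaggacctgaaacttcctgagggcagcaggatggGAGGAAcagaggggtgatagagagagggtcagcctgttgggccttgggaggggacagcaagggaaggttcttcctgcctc
C1qc: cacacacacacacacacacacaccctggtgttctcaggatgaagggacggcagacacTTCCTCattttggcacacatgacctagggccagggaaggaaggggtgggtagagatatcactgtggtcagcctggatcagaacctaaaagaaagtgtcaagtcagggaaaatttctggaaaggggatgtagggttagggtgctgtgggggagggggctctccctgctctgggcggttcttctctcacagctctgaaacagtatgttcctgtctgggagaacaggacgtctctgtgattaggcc
Prtn3: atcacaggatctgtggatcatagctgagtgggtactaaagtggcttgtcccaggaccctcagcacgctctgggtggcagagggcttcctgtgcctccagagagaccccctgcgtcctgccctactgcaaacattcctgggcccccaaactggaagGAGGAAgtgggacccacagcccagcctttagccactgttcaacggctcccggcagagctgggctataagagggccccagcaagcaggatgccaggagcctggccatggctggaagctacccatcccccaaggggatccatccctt
Each of the 3 held this core at 1 place, as did 28.3% of 32851 mouse promoters of this length at 1 place or more, so the match alone does not set these genes apart.

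Red pulp macrophage and monocyte genes were higher more often than lower. Of the 26 members tested, 19 were higher and 7 lower at 10 µmol/kg, with a median difference of 0.35, against 46.9% of all genes higher, 53.1% lower and a median of −0.02. Of these, 8 members had an unadjusted p under 0.05 and were higher and 1 was lower (30.8% and 3.85% of the list, against 0.996% and 0.634% of all genes). The 8 include the C1q chains given above, which are counted again here, and the list was chosen with earlier results of these data known. The groups did not overlap for 11 higher and 2 lower members (42.3% and 7.69% of the list, against 11% and 11.5% of all genes). These shares of all genes are the background for every list below. The largest difference was in Ms4a6d, a membrane protein of monocytes and macrophages. It read 7.42 and 8.06 at 10 µmol/kg and 5.35 and 6.47 in saline, a difference of 1.84 ± 0.41 (array 1 2.08, array 2 1.59). A second Ms4a6d probe, dim and not detected on either saline array, differed by 0.59 ± 0.25. The mannose receptor Mrc1, which takes up glycoproteins, read 9.88 and 10.25 at 10 µmol/kg and 9.04 and 9.28 in saline (0.91 ± 0.26). Spic, the transcription factor that red pulp macrophages need, read 8.94 and 9.03 at 10 µmol/kg and 8.40 and 8.13 in saline (0.72 ± 0.23). Mertk, a receptor for dying cells, differed by 0.70 ± 0.25, and Aif1, an actin-binding protein of macrophages, by 0.70 ± 0.26. A second Aif1 probe differed by only 0.19 ± 0.28, with overlapping groups.

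Other members of this list lay on both sides of 0. The brightest, the lysozyme Lyz1 and the adhesion molecule Vcam1, differed by −0.06 ± 0.25 and 0.34 ± 0.28, and a second Lyz1 probe had the opposite sign. The scavenger receptor Marco, a protein of marginal zone macrophages, went the other way, with 6.83 and 6.78 at 10 µmol/kg and 7.24 and 8.05 in saline (−0.84 ± 0.35). Siglec1, which marks the metallophilic macrophages at the edge of the white pulp, differed by −0.28. The array 1 and array 2 medians of the list were 0.28 and 0.50. Leaving out any 1 array moved the list median by more than 1.5 times, to 0.68 or 0.15 when array 1 or 2 of the 10 µmol/kg group was dropped, and to 0.14 or 0.52 when saline array 1 or 2 was.

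**Figure D2:**
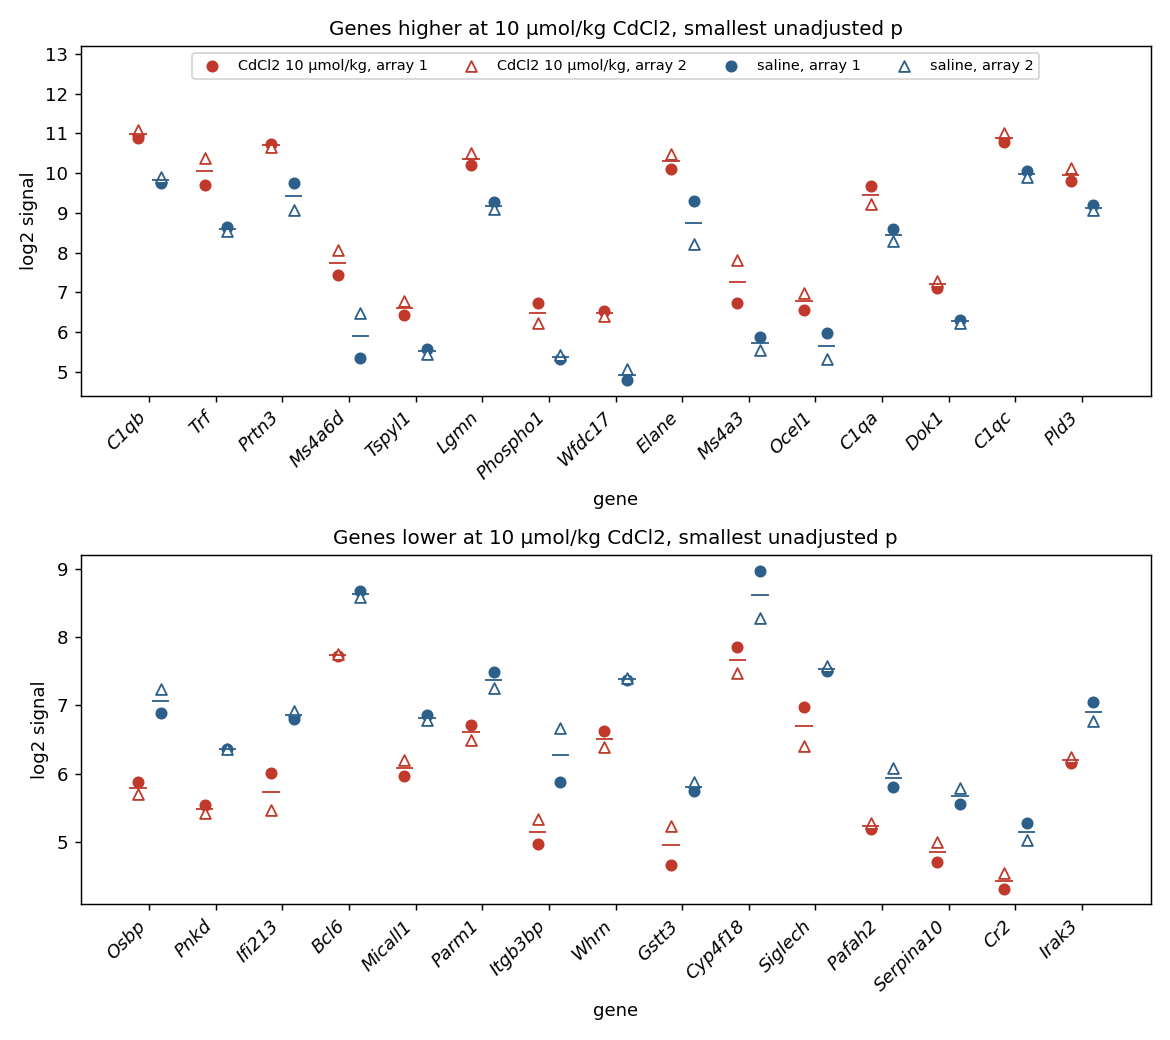
Log2 signal (y axis) of the 15 higher genes (upper panel) and the 15 lower genes (lower panel) with the smallest unadjusted p, on each array. Red marks 10 µmol/kg and blue saline, filled circles array 1, open triangles array 2, and short lines the mean of each group of 2. In every gene shown the 2 groups do not overlap, by the way the genes were chosen, while arrays of 1 group can lie apart, as for Elane in saline (9.29 and 8.21).

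Genes of iron recycling and of the lysosome, where macrophages break down what they engulf, were higher in 16 of 20 and 20 of 28 members. Transferrin, Trf, which carries iron in plasma, read 9.70 and 10.39 at 10 µmol/kg and 8.63 and 8.55 in saline. That was a difference of 1.45 ± 0.30, or 2.73-fold (1.65 to 4.51), with 1.07 on array 1 and 1.83 on array 2. Haptoglobin, Hp, which binds free haemoglobin, read 9.76 and 9.86 at 10 µmol/kg and 9.25 and 8.80 in saline (0.79 ± 0.27). Its receptor Cd163 differed by 0.51 and the iron exporter Slc40a1 by 0.25. Haem oxygenase, Hmox1, which opens the haem ring and is induced by cadmium in many cell types, read 8.94 and 9.52 at 10 µmol/kg and 8.59 and 8.97 in saline. Its groups overlapped, and its difference was 0.45 ± 0.30, with an interval of 0.832-fold to 2.24-fold. The ferritin heavy chain Fth1 (−0.02 ± 0.25) and the biliverdin reductase Blvrb (0.02 ± 0.37), the brightest of the list, lay near 0, the first with a second probe of opposite sign. The iron list had a median of 0.15, with 0.33 on array 1 and 0.18 on array 2, and the median was 0.32 when saline array 2 was dropped. Its 2 members with an unadjusted p under 0.05, Trf and Hp, were both higher (10% of the list, against 0.996% of all genes).

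In the lysosome list the asparagine-specific protease legumain, Lgmn, stood first. It read 10.21 and 10.51 at 10 µmol/kg and 9.27 and 9.08 in saline, a difference of 1.18 ± 0.27 (array 1 0.94, array 2 1.43), and it was the only member with an unadjusted p under 0.05. Cathepsin L, Ctsl, differed by 0.49, cathepsin A, Ctsa, by 0.48 and cathepsin B, Ctsb, by 0.25, while the osteoclast-type acid phosphatase Acp5 differed by −0.45. The list median was 0.10, but it was −0.05 without array 2 at 10 µmol/kg and 0.26 without array 1. Pld3, a lysosomal nuclease on no list, read 9.80 and 10.12 at 10 µmol/kg and 9.19 and 9.06 in saline (0.84 ± 0.24). The lectin receptor Clec4d of myeloid cells (0.94 ± 0.27), the receptor Treml4 of splenic macrophages and dendritic cells (1.02 ± 0.34) and the secreted protein Wfdc17 were also higher on both pairs of arrays. A second Treml4 probe differed by 0.60 ± 0.44, with overlapping groups. Wfdc17 read 6.53 and 6.41 at 10 µmol/kg and 4.79 and 5.06 in saline, a difference of 1.54 ± 0.37. The cystatin Cstdc4, of the stefin A family of myeloid cells, read 6.95 and 7.15 at 10 µmol/kg and 5.56 and 5.79 in saline (1.37 ± 0.49).

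Of the 26 neutrophil and granulocyte precursor genes tested, 19 were higher and 7 lower (73.1% and 26.9%, against 46.9% and 53.1% of all genes), with a median of 0.20. Among the higher ones were proteases of the primary granules, which promyelocytes make in the marrow and, in rodents, the spleen. Proteinase 3, Prtn3, read 10.74 and 10.65 at 10 µmol/kg and 9.75 and 9.07 in saline. Neutrophil elastase, Elane, read 10.11 and 10.48 at 10 µmol/kg and 9.29 and 8.21 in saline. Cathepsin G, Ctsg, read 8.88 and 9.95 at 10 µmol/kg and 7.89 and 8.35 in saline. The groups did not overlap for any of these proteases, although the 2 saline arrays of Elane lay apart. The differences were 1.28 ± 0.29 for Prtn3, 1.54 ± 0.38 for Elane and 1.30 ± 0.39 for Ctsg, each positive on array 1 (0.99, 0.82 and 0.997) and on array 2 (1.58, 2.27 and 1.60). Ms4a3, a membrane protein of granulocyte and monocyte precursors, read 6.72 and 7.80 at 10 µmol/kg and 5.87 and 5.56 in saline (1.55 ± 0.40). Myeloperoxidase, Mpo, had 4 probes, looked at after their values were seen, and they differed by 0.50 ± 0.32, 0.51 ± 0.27, 1.28 ± 0.31 and 1.55 ± 0.35.

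Genes of later granules and of mature neutrophils lay on both sides of 0. Lactoferrin, Ltf, of the secondary granules, read 11.81 and 11.60 at 10 µmol/kg and 12.52 and 11.89 in saline (−0.49 ± 0.32), and the calprotectin chain S100a8 differed by 0.16 ± 0.24. The cathelicidin Camp differed by −0.38 and the chitinase-like Chil3 by −0.25, while lipocalin 2, Lcn2, differed by 0.23. The resistin-like Retnlg read 9.10 and 9.11 at 10 µmol/kg and 8.01 and 8.31 in saline (0.94 ± 0.31). Haptoglobin, given above, is also a gene of maturing neutrophils and a member of this list (0.79 ± 0.27). Stages were not compared by a test. Over the whole list, the array 1 median was 0.01 and the array 2 median 0.49. The list median ran from 0.08 without saline array 2 to 0.33 without saline array 1. Unadjusted p-values under 0.05 were found for 6 members, all higher (23.1%, against 0.996% of all genes), namely Prtn3, Elane, Ctsg, Ms4a3, Retnlg and Hp.

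All 18 megakaryocyte and platelet genes tested were higher at 10 µmol/kg, with a median of 0.41. The size of the difference rested on 1 saline array. The mean log2 signal of the list was 8.27 and 8.31 at 10 µmol/kg and 8.17 and 7.57 in saline, so that saline array 2 was low. The median was accordingly 0.07 between the arrays numbered 1 and 0.71 between the arrays numbered 2, and it was 0.20 without saline array 2 and 0.76 without saline array 1. Gp9, a chain of the platelet receptor for von Willebrand factor, read 9.95 and 9.86 at 10 µmol/kg and 9.36 and 9.07 in saline (0.69 ± 0.23), and was the only member with an unadjusted p under 0.05. Its partner Gp1bb differed by 0.67, with 0.62 on array 1 and 0.71 on array 2. The platelet chemokine Ppbp read 10.50 and 11.44 at 10 µmol/kg and 10.65 and 9.43 in saline (0.94 ± 0.48), with overlapping groups.

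**Figure D3:**
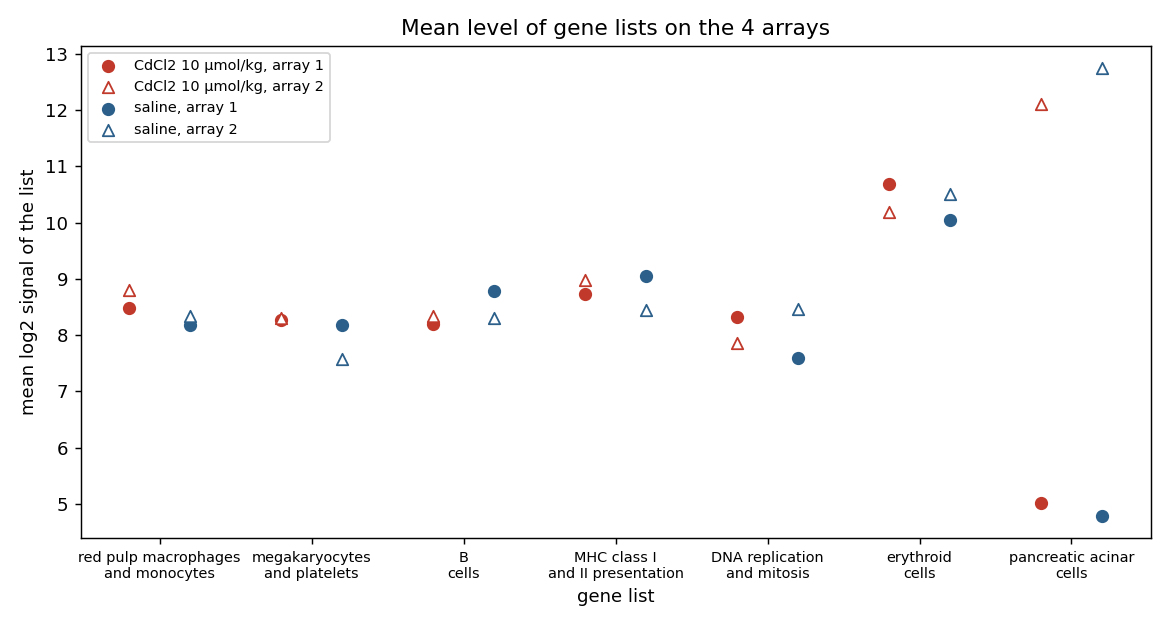
Mean log2 signal (y axis) of the tested members of 7 gene lists on each array. Red marks 10 µmol/kg and blue saline, filled circles array 1 and open triangles array 2. Macrophage genes were higher on both arrays at 10 µmol/kg (8.47 and 8.80) than in saline (8.17 and 8.35). In every other list shown, the arrays of at least 1 group lay further apart than the means of the groups did.

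Red cell genes had no common direction. Of 28 tested, 17 were higher and 11 lower, with a median of 0.05. The array 1 median was 0.73 and the array 2 median −0.50. On both pairs 6 of the 28 were higher (21.4%, against 20.9% of all genes) and 3 lower (10.7%, against 26.9%). The share higher on both pairs was thus near that of all genes. Among the 6 were 2 genes with an unadjusted p under 0.05 (7.14% of the list, against 0.996% of all genes). Rhag, the erythroid ammonium channel that partners the Rh proteins, read 8.76 and 9.14 at 10 µmol/kg and 7.80 and 7.90 in saline (1.09 ± 0.35), and its other 2 probes were also higher. Ferrochelatase, Fech, which puts iron into haem, read 8.79 and 9.49 at 10 µmol/kg and 7.70 and 8.63 in saline (0.97 ± 0.39), although 1 of its 3 probes, not detected at 10 µmol/kg, had the opposite sign. The carbonic anhydrases Car1 and Car2, of red cells, differed by 0.87 and 0.75. The regulator Klf1 read oppositely on the pairs of arrays, at 0.97 and −0.88, and the first haem enzyme of red cells, Alas2, at 0.55 and −0.61. Globin Hba-a1 (−0.12 ± 0.23) and the anion exchanger Slc4a1 (−0.09 ± 0.23), the brightest members, were near the top of the scale.

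A probe for a gene of haem synthesis had the lowest adjusted p of the 18960 probes. Tmem14c, which carries a haem precursor across the inner mitochondrial membrane, has 3 probes and was singled out after its values were seen. On probe ILMN_2435206 it read 10.26 and 11.39 in saline, 12.04 and 11.01 at 5 µmol/kg and 4.29 and 4.42 at 10 µmol/kg, where it was not well above background on either array. The deposited signals behind these values were −5.49 and 0.802 at 10 µmol/kg, against 1209 and 2666 in saline. Against the detection limit, this probe was at least 68.3-fold lower at 10 µmol/kg, with an adjusted p of 0.0644 in the limma fit over all 18960 probes. The gap between its groups, 5.84 log2 units, compares with 1.35 for the next probe of the 18960. The other 2 probes of Tmem14c differed by −0.04 ± 0.48 and −0.16 ± 0.51, with 10.17 and 9.96 at 10 µmol/kg against 9.46 and 10.76 in saline on the first. Only 1 of 3 probes of this gene therefore showed the difference. Whether the low signal reflects the transcript or how well the probe matches it in these outbred mice was not tested, so the fold is a value of this probe and not a measure of the gene's expression.

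**Figure D4:**
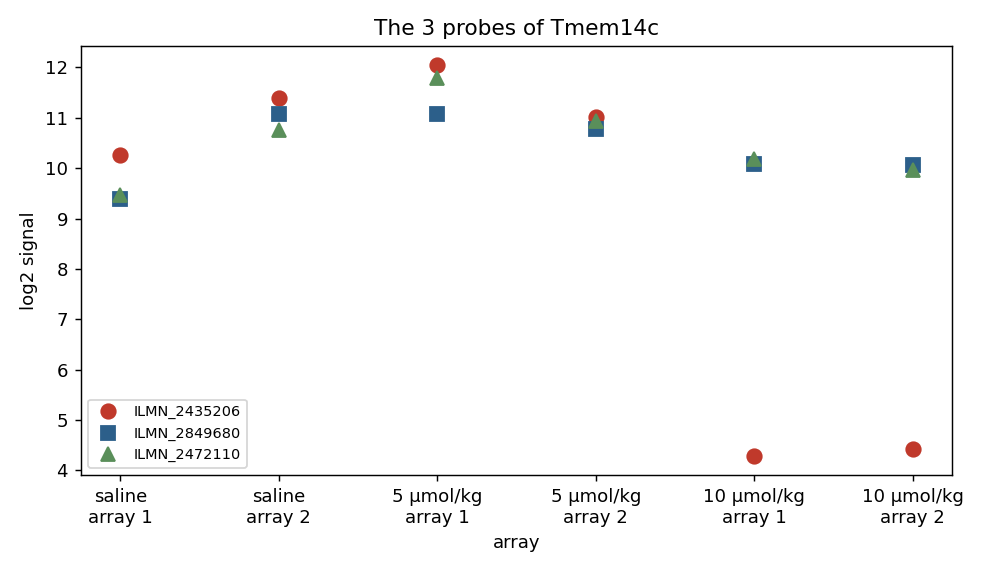
Log2 signal (y axis) of the 3 probes of Tmem14c on the 6 arrays, from saline to 10 µmol/kg (x axis). Each point is 1 probe on 1 array. ILMN_2435206 reads 4.29 and 4.42 at 10 µmol/kg, at the level of background, and between 10.26 and 12.04 on the other arrays, while the other probes stay between 9.40 and 11.78 on every array.

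B cell genes were lower in 15 of 18 members, with a median of −0.29. Bcl6, the repressor that germinal centre B cells need, had the smallest p among them. It read 7.73 and 7.75 at 10 µmol/kg and 8.67 and 8.59 in saline, a difference of −0.89 ± 0.25, with −0.95 on array 1 and −0.84 on array 2. The complement receptor Cr2, which marginal zone B cells carry, was not detected on either array at 10 µmol/kg (4.31 and 4.54). In saline it was detected on both (5.27 and 5.02), near the detection limit. Against that limit its measured signal was at least 1.33-fold lower, a bound that leaves out the spread between arrays. The difference was −0.72 ± 0.24, with an interval of 0.410-fold to 0.902-fold and an adjusted p of 0.99996 in the limma test. The inhibitory receptor Cd22 differed by −0.65 and the surface protein Ms4a1 (CD20) by −0.47, both with the same sign on each pair of arrays. The B cell receptor chain Cd79b differed by −0.14 ± 0.33, with a second probe of opposite sign, and the IgM receptor Fcmr by −0.38 ± 0.30. The lower level was seen mainly between the arrays numbered 1, where the median was −0.64, against −0.04 between the arrays numbered 2. Without saline array 1 the median was 0.00, and without saline array 2 it was −0.55. The mean log2 signal of the list was 8.20 and 8.34 at 10 µmol/kg and 8.79 and 8.30 in saline.

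Other lymphoid and dendritic genes lay near the median of all genes. The T cell list of 21 genes had a median of −0.02, and its 1 member with an unadjusted p under 0.05 was the costimulator Icos, with 5.51 and 5.92 at 10 µmol/kg and 6.42 and 6.36 in saline (−0.68 ± 0.26). The T cell receptor chain Cd3d differed by 0.01 ± 0.28. Medians were 0.02 for 10 NK and cytotoxic genes, 0.03 for 9 plasma cell genes and −0.06 for 15 dendritic cell genes. Perforin, Prf1, differed by −0.72 and the granule protein Nkg7 by 0.53 ± 0.25. Siglech, a lectin of plasmacytoid dendritic cells, read 6.98 and 6.40 at 10 µmol/kg and 7.50 and 7.57 in saline (−0.85 ± 0.27), but its second probe had the opposite sign. Slamf7, a receptor of plasma and NK cells, was lower on both pairs of arrays (−0.82 and −0.96) with overlapping groups (−0.89 ± 0.61). Its second probe differed by −0.10 ± 0.30 and was higher on array 2 at 10 µmol/kg (5.51) than on saline array 2 (5.14).

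Markers of supporting and neighbouring cells were measured as well. Of 23 stromal genes 14 were lower, with a median of −0.16 (−0.09 without array 1 at 10 µmol/kg), and the matrix proteins Bgn and Sparc, the brightest, differed by −0.30 ± 0.27 and 0.43 ± 0.44. The endothelial list of 21 genes had a median of −0.06. Of 10 mast cell, basophil and eosinophil genes 8 were higher, with a median of 0.22 (0.15 without array 2 at 10 µmol/kg), and the eosinophil granule protein Prg2 read 11.25 and 11.30 at 10 µmol/kg and 9.12 and 11.10 in saline (1.16 ± 0.59). That difference came from saline array 1, as its array 2 value was 0.19. Adipocyte genes, 6 of them, had a median of −0.24, but of 0.03 without array 1 at 10 µmol/kg and −0.42 without array 2. Liver cell genes were at or near background, with the plasma protein Ttr detected on 1 array of each group. The acinar list itself had a median of −0.22, with 0.23 on array 1 and −0.67 on array 2.

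**Figure D5:**
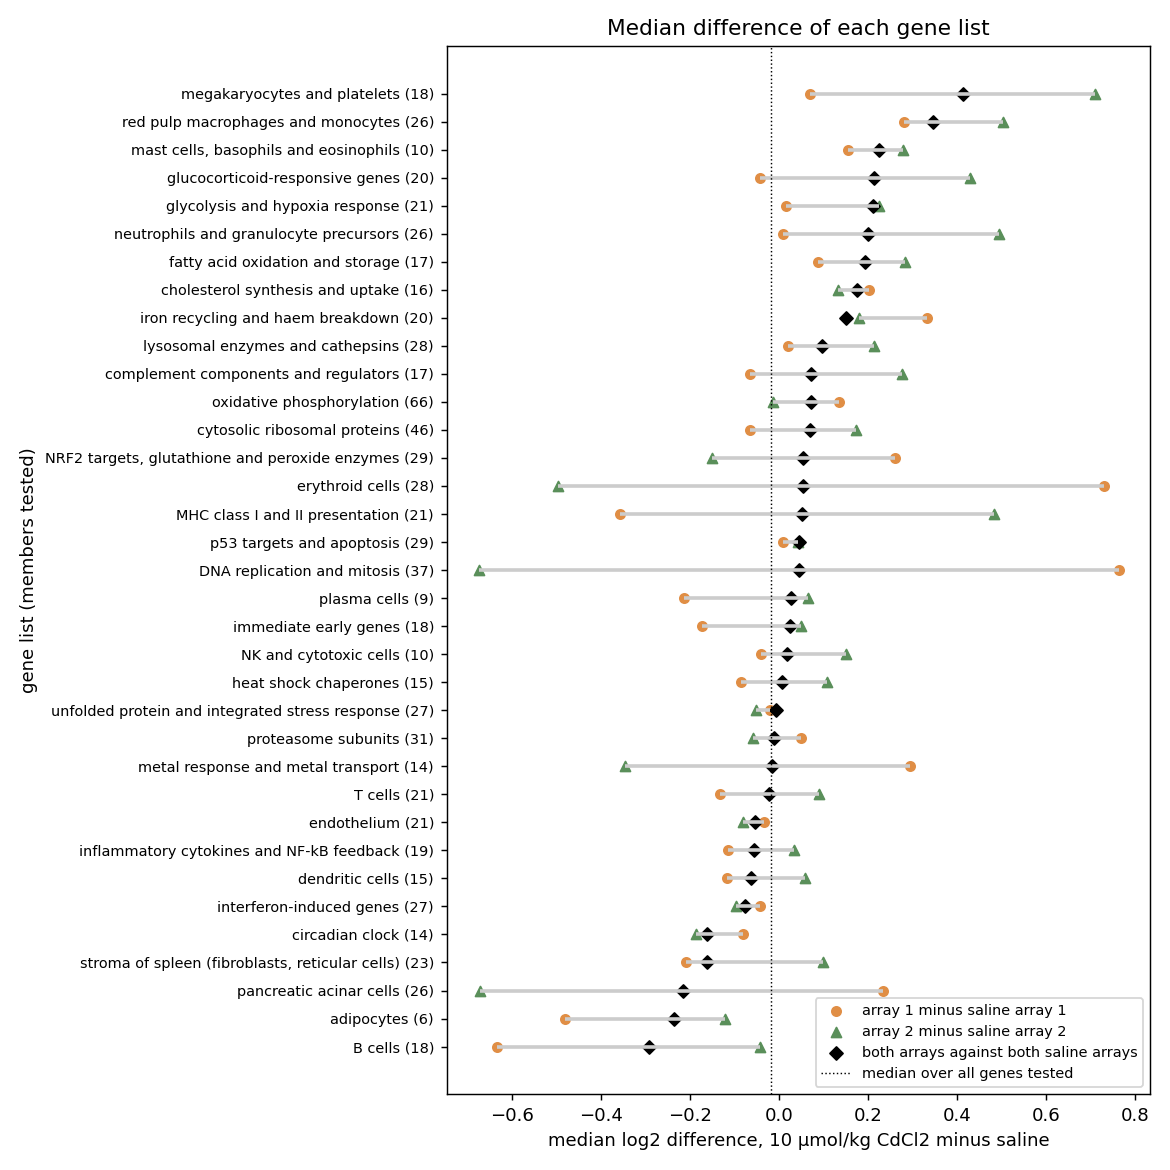
Median log2 difference, 10 µmol/kg minus saline, of 35 gene lists with at least 5 tested members (number in brackets). Black diamonds are both arrays against both saline arrays, orange circles array 1 against saline array 1 and green triangles array 2 against saline array 2. The dotted line is the median of all genes, −0.02. Macrophage genes have values of 0.28 and 0.50 on the 2 pairs of arrays, while cell division genes have 0.76 and −0.68.

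Genes that cadmium induces in many tissues were examined next. Metallothionein 1, Mt1, read 12.28 and 12.07 at 10 µmol/kg and 11.48 and 13.17 in saline. Saline array 1 thus lay below both cadmium arrays and saline array 2 above both. The difference was −0.15 ± 0.52, with an interval of 0.382-fold to 2.11-fold, and it was 0.80 between the arrays numbered 1 and −1.11 between the arrays numbered 2. Metallothionein 2, Mt2, on a dim probe detected on 1 array of each group, differed by −0.27 ± 0.40. The promoter of Mt1 (chr8:94178839-94179138, plus strand, RefSeq, build GRCm38.p6) is shown because its metal response elements are the textbook sites of induction by zinc and cadmium. Capitals mark TGCNCNC, with N for any base, a loose pattern for the core of the element that the metal-sensing factor Mtf1 binds. The search covered both strands.
Mt1: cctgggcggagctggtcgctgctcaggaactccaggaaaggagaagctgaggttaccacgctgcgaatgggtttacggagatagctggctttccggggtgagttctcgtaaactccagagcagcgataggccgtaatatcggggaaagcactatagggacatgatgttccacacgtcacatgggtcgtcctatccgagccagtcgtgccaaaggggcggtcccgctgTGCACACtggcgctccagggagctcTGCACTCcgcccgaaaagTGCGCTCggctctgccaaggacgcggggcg
The Mt1 promoter held this pattern at 3 places. At least 1 match was present in 51.0% of the 32851 promoters, and at least 3 in 7.10%. Both shares count every match to the loose pattern.

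The sensor Mtf1 differed by 0.25 ± 0.28, with a second probe of opposite sign, and the zinc exporter Slc30a1, one of its targets, by 0.00 ± 0.27. Slc39a8, a zinc and manganese importer that also carries cadmium, was not detected on either array at 10 µmol/kg and on 1 of 2 in saline (4.52 and 4.66 against 4.56 and 4.75). Its relative Slc39a14 was not among the genes tested. Of 14 metal genes 7 were higher and 7 lower, none with an unadjusted p under 0.05, and the list median was −0.02, with 0.29 on array 1 and −0.35 on array 2.

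Oxidative and protein stress genes showed little common movement. The NRF2 and glutathione list had 18 of 29 genes higher and a median of 0.05 (0.26 on array 1, −0.15 on array 2). Sqstm1, the autophagy receptor p62 and an NRF2 target, read 9.92 and 10.16 at 10 µmol/kg and 9.39 and 9.32 in saline (0.69 ± 0.23). The glutamate-cysteine ligase subunit Gclm differed by 0.24 and the quinone reductase Nqo1 by 0.29. Gpx1, the brightest member, sat at the top of the scale (14.70) on both arrays at 10 µmol/kg, so its difference could not be measured. Glo1, an enzyme that clears methylglyoxal with glutathione, was on no list and read 10.61 and 10.66 at 10 µmol/kg and 11.60 and 11.48 in saline (−0.91 ± 0.33). The heat shock list of 15 genes had a median of 0.01, and Hsph1, a co-chaperone of the HSP70 family, read 7.23 and 7.18 at 10 µmol/kg and 7.76 and 7.73 in saline (−0.54 ± 0.22). Unfolded protein and integrated stress genes had a median of −0.01 (27 genes), among them the chaperone Hspa5 at −0.08 and the factor Atf4 at −0.07. The p53 and apoptosis list had a median of 0.04 (29 genes), with the survival protein Bcl2l1 at 0.92 and the cell cycle inhibitor Cdkn1a at 0.11.

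Inflammatory and interferon genes were not raised as groups. Of 19 cytokine and NF-kB genes 8 were higher and 11 lower, with a median of −0.06, and interleukin 1 beta, Il1b, differed by 0.66 and tumour necrosis factor, Tnf, by −0.38. Of 27 interferon-induced genes 17 were lower (63.0%, against 53.1% of all genes), with a median of −0.08, and 9 were lower on both pairs of arrays (33.3%, against 26.9% of all genes). Ifi213, a member of the PYHIN family of DNA-binding proteins, read 6.004 and 5.46 at 10 µmol/kg and 6.81 and 6.92 in saline (−1.13 ± 0.30), and the GTPase Irgm1 differed by −0.52 ± 0.25. Antigen presentation genes had a median of 0.05 that hid a split, at −0.36 on array 1 and 0.48 on array 2, with the class II chain H2-Ab1 at −0.36 and 1.54. Apart from C1q, complement genes lay on both sides of 0, with C4b at −0.55 and the regulator Cd55 at 0.42. Component C6, on no list and looked at after its values were seen, was higher on both of its probes (1.20 ± 0.25 and 0.84 ± 0.26).

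Glucocorticoid-responsive genes were higher in 16 of 20 members, with a median of 0.21. The steroid-induced immunophilin Fkbp5 differed by 0.38, the kinase Sgk1 by 0.47 and Pik3ip1, a brake on PI3 kinase, by 0.78 ± 0.30. An unadjusted p under 0.05 was found for 1 higher and 1 lower member (5% each, against 0.996% and 0.634% of all genes). The lower one, with the smallest p of the list, was Bcl6, given above (−0.89 ± 0.25). The list had an array 1 median of −0.04 and an array 2 median of 0.43. Its median was 0.34 when array 1 at 10 µmol/kg was dropped and 0.01 when array 2 was. Clock genes were lower in 10 of 14, with a median of −0.16 that was −0.02 without saline array 1. Only 4 of the 14 were lower on both pairs of arrays (28.6%, against 26.9% of all genes). The repressor Per2 read 6.39 and 6.09 at 10 µmol/kg and 6.85 and 6.84 in saline (−0.61 ± 0.25). Nr1d2, a nuclear receptor of the clock, was not detected at 10 µmol/kg. Against the detection limit its measured signal was at least 1.29-fold lower, a bound that leaves out the spread between arrays. The bright clock genes Per1 and Dbp differed by 0.14 ± 0.39 and −0.20 ± 0.51.

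Metabolic genes differed by small amounts. Cholesterol synthesis genes were higher in 12 of 16 members (75%, against 46.9% of all genes), and the groups did not overlap for 7 members, all higher (43.8%, against 11%). Their median was 0.17, with 0.20 on array 1 and 0.13 on array 2, and it lay between 0.18 and 0.22 when any 1 array was left out. Farnesyl diphosphate synthase, Fdps, read 8.62 and 8.57 at 10 µmol/kg and 7.95 and 8.12 in saline (0.56 ± 0.24), with a second probe of opposite sign, and the sterol sensor partner Insig1 differed by 0.49. Osbp, the oxysterol-binding protein that carries cholesterol from the endoplasmic reticulum to the Golgi, had the smallest p of the lower named genes. It read 5.88 and 5.70 at 10 µmol/kg and 6.89 and 7.25 in saline, a difference of −1.28 ± 0.30, or 2.43-fold lower. Fatty acid oxidation genes were higher in 15 of 17 (median 0.19), with the electron carriers Etfa and Etfb at 0.41 ± 0.27 and 0.36 ± 0.23. Left without array 2 at 10 µmol/kg, this list had a median of −0.08, and left without array 1 a median of 0.48, while dropping saline array 1 or 2 gave 0.10 or 0.31. Glycolysis genes had a median of 0.21, with 0.02 on array 1 and 0.22 on array 2, and the hexokinase Hk1 was at 0.63 ± 0.25. Dropping array 1 at 10 µmol/kg gave 0.12, and dropping array 2 gave 0.05.

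Housekeeping lists lay near 0. Like many lists with a small median, they had no stable sign, and 23 of all 35 list medians changed sign when some 1 array was left out. Respiratory chain genes were higher in 44 of 66 (median 0.07), and Atp5pb, a subunit of the ATP synthase stalk, differed by 0.79 ± 0.31 with 1 of its 3 probes opposite. Ribosomal protein genes had a median of 0.07, with Rpl7a apart from the rest at 9.21 and 10.18 at 10 µmol/kg and 8.44 and 8.60 in saline (1.18 ± 0.35). The proteasome and immediate early lists had medians of −0.01 and 0.02. DNA replication and mitosis genes read oppositely on the 2 pairs of arrays, with a median of 0.76 on array 1 and −0.68 on array 2, and 36 of 37 genes higher on the first and 5 on the second. Their median over both was 0.04, and the kinetochore histone Cenpa and the survivin gene Birc5 differed by 0.09 ± 0.24 and 0.23 ± 0.34.

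Of the 221 genes with an unadjusted p under 0.05, most were on no list, 24 of the 135 higher and 9 of the 86 lower being members. Among the higher ones were Tspyl1, a nucleosome assembly-like protein (6.42 and 6.78 at 10 µmol/kg, 5.58 and 5.45 in saline), Phospho1, a phosphatase of phosphocholine (6.73 and 6.23 at 10 µmol/kg, 5.33 and 5.43 in saline), and Dok1, an adaptor that restrains signalling in blood cells. Dok1 differed by 0.93 ± 0.26 on its brightest probe, and 1 of its other 2 probes had the opposite sign. Among the lower ones were Pnkd (−0.88 ± 0.22), Micall1, a protein of recycling endosomes (−0.74 ± 0.23), Parm1 (−0.77 ± 0.23), Itgb3bp, a centromere protein (−1.12 ± 0.34), and Irak3, a brake on Toll-like receptor signalling (−0.71 ± 0.24). The hydroxylase Cyp4f18, which inactivates leukotriene B4 in mouse neutrophils, read 7.86 and 7.47 at 10 µmol/kg and 8.98 and 8.28 in saline (−0.96 ± 0.31), with a second probe of opposite sign. On their brightest probes, the transcription factor Bcl11a and the ribosome assembly gene Ppan were lower on both pairs of arrays, by −0.87 and −0.87 and by −0.86 and −1.33. On these probes the 2 groups overlapped because the arrays numbered 2 read lower than those numbered 1 in both. A second Bcl11a probe differed by −0.38 ± 0.24 without overlap, and a second Ppan probe by −0.19 ± 0.27 with overlap. Probe ILMN_2770066, which has no gene name here and was picked after its values were seen, was among the 6 lower ones, with 8.85 and 8.33 at 10 µmol/kg and 10.17 and 10.09 in saline.

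Beside these stand the arrays at 5 µmol/kg, which share the saline arrays, so both differences from saline move with the same 2 references and their likeness was not measured. C1qb differed from saline by 0.56 at 5 µmol/kg and by 1.16 at 10 µmol/kg. Trf differed by 0.97 at 5 µmol/kg and by 1.45 at 10 µmol/kg. Elane differed by 1.36 at 5 µmol/kg and by 1.54 at 10 µmol/kg. C1qb, Trf and Elane had been named for their small p at 10 µmol/kg, a choice that favours larger values at that dose. Other higher genes named above had the larger value at 5 µmol/kg. Ms4a3 differed by 1.74 at 5 µmol/kg and 1.55 at 10 µmol/kg, Rhag by 1.60 and 1.09, and Tspyl1 by 1.11 and 1.09. A trend with dose was not tested. On the lower side, Osbp differed by −1.49 at 5 µmol/kg and by −1.28 at 10 µmol/kg, and Bcl6 by −0.92 at 5 µmol/kg and −0.89 at 10 µmol/kg. The macrophage list had a median of 0.20 at 5 µmol/kg and of 0.35 at 10 µmol/kg, and the B cell list of −0.49 and −0.29 at these doses. Both arrays at 5 µmol/kg had bright acinar genes (12.34 and 11.38 mean log2 signal), so that dose could not be set against saline array 1 at a like acinar level.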

How the data were processed

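Per the labels' protocols, spleen RNA was extracted with Trizol, cleaned up with a column kit, amplified as biotin-labelled RNA and hybridised to Illumina bead arrays. The authors deposited, for each probe and array, a mean bead intensity on a linear scale and a detection p-value, which sets that intensity against negative-control probes. The intensity table is described as not normalized, but once sorted, the 6 columns agreed to within 0.243 at every rank, so it had been quantile normalized before deposit, and its lowest value of −20.1 shows that background had been subtracted. The software was not given in the sources used here. A deposited series matrix held identical intensities for 45279 of the 45281 probes.

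From these intensities log2 signals were computed with neqc in limma 3.58.1 (R 4.3.3), which infers the background level from the detection p-values, with an offset of 16 and quantile normalization. The offset makes folds of dim genes too small. GEO's platform annotation paired 34885 probes with 1 symbol and 18 with several, and left 10378 unnamed. Of the 34885, 34807 were found in a RefSeq table of GRCm38.p6. A model with 1 mean per group was fitted to all 6 arrays (3 residual and 3.64 prior degrees of freedom), and p-values were adjusted over the 13559 genes and probes by the Benjamini-Hochberg method. A group with no detected array has only a bound, set by the lowest detected signal of each array. Such a bound takes no account of the spread between arrays. The detection limit lay between 4.64 and 4.76 log2 units.

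The comparison and the 38 gene lists were chosen with earlier results of these data known. Genes were named by rule: the 15 with the smallest p in each direction, passing over predicted and unnamed genes; the 12 in each direction with the largest smaller value of the array 1 and array 2 differences; the 2 brightest of each list; list members with an unadjusted p under 0.05; and 7 metal and haem genes. Other list members named were picked from the lists after their values were seen. The number of arrays limits the precision. Replicate numbers were shared between groups but the labels do not say that they pair samples. Alternatives changed the background correction, normalization, filter, probe choice, arrays fitted, variance model and threshold, added the acinar level or the replicate number, or left out each array.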

Additional observations from a re-analysis of the deposited data

How the results depend on the processing

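In none of the 23 other settings, those leaving out an array included, did a gene or probe pass an adjusted p under 0.05, and none passed 0.10 in the setting reported. The smallest adjusted p ran from 0.0644, for a Tmem14c probe with every probe tested separately, to 1.0. The number of genes with an unadjusted p under 0.05, 221 in the report (135 higher, 86 lower), moved by more than 1.5 times in several settings. Without the filter on dim probes it was 876 (458 higher, 418 lower), or 2.97% of the 29453 then tested against 1.63%, and the cause of the larger share was not tested. With only the 4 arrays compared it was 96 (65 higher, 31 lower), from a fit with fewer residual degrees of freedom. With the mean acinar level as a covariate it was 785 (327 higher, 458 lower), or 5.79% of those tested. With the acinar class of the arrays as a block it was 742 (312 higher, 430 lower), or 5.47%. The smallest adjusted p-values of these 2 fits were 0.803 and 0.875. Both shares are near 0.05, the share that the threshold lets through when no gene differs. With probes detected on all 6 arrays the lower genes numbered 57. Leaving out 1 array gave 181 to 1108 genes, 93 to 581 of them higher and 88 to 527 lower, with 520 without saline array 1, 477 without saline array 2 and 1108 without array 1 at 10 µmol/kg. Among these leave-out counts, only that without array 1 at 10 µmol/kg exceeded a share of 0.05 of those tested. That fit left 1 array at 10 µmol/kg, so the spread within this group was not measured and no conclusion is drawn from its count. Of the 43 genes named for their p or for their array 1 and array 2 differences, 42 kept their sign in every setting, the exception being Tmem219. Of the 35 list medians, 12 did so and 16 had the same sign on both pairs of arrays.

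Samples of the 3 groups share replicate numbers. The deviations of same-numbered arrays from their group means correlated at 0.579 for 10 µmol/kg with saline, −0.109 for 10 with 5 µmol/kg and −0.276 for 5 µmol/kg with saline, so the numbers were not taken as pairs. With the replicate block the count at an unadjusted p under 0.05 was 207 over all 6 arrays and 477 (192 higher, 285 lower) over the 4 arrays compared, where same-numbered arrays also share their acinar level.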
